A study of Mus musculus with 24 samples.

Results

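Immunoglobulin variable segments (V segments) are the germline gene pieces that encode the antigen-binding part of antibody heavy and light chains. The set described here was taken by a rule on symbols and counts. Its members are the genes whose symbol starts with Ighv (heavy chain), Igkv (kappa light chain) or Iglv (lambda light chain) and whose raw counts summed to 10 or more over all 24 kidney libraries. The rule gave 186 members of 348 V segments in the count files, which list 54532 genes. The heavy chain locus on chromosome 12 (mm10) gave 94 of 185 segments, the kappa locus on chromosome 6 gave 89 of 160 and the lambda locus on chromosome 16 gave 3 of 3. Of the segments left out, 124 had no count in any library and 38 had 1 to 9 counts. The annotation classes 181 members as functional V genes and 5 as pseudogenes. Because counts in these same libraries chose the members, their presence is a description. Just inside the threshold lay Ighv1-71 and Ighv1-73 with 10 counts and Ighv8-4 with 11 counts, and just outside it lay Ighv2-4, Igkv7-33, Igkv4-92 and Igkv2-137 with 9 counts each.

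The kidneys came from mice that lacked megalin (gene Lrp2), an endocytic receptor of the proximal tubule, in proximal tubule cells, and from their wild-type littermates. The labels call them PTC LRP2-SM22 -/- and +/+ without explaining SM22, so the cell specificity rests on the text of the series record. Every mouse in both genotypes received Western diet, for 2 or for 12 weeks, and each of the 4 groups of genotype and duration had 6 libraries of whole-kidney RNA. The title of the series names tubulointerstitial nephritis after megalin deletion. The genotype comparison at each duration therefore asks how much antibody gene RNA such kidneys held, and from which V segments. The labels do not say that the 6 libraries of a group came from 6 mice, and the p-values therefore reflect the scatter among these libraries, which may be technical in part.

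In a developing B cell, recombination joins 1 V segment to a joining (J) segment, with a diversity (D) segment between them in the heavy chain, and the joined exon is spliced to a constant region. B cells carry the product on their surface, and plasma cells, the antibody-secreting end stage of the lineage, hold large amounts of it as RNA. Each clone uses its own joined V segments. V segment counts in whole tissue therefore add up RNA from many clones, and neither a clone nor its number of cells can be read from them. Plasma cells and B cells occur in the interstitium of inflamed kidneys, and antibody of the IgA class is made mainly by plasma cells of mucosal tissues.

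The 3′ ends of 11 members are shown because these members carry most of the findings below and because this end is where segments are joined. Each line gives the last 60 bases of the coding V segment in sense orientation (leader and V exons spliced, GENCODE M21, build GRCm38/mm10). Capitals mark the codon of the last cysteine, the conserved residue at the end of the V domain framework, after which the third hypervariable loop begins.
Iglv1: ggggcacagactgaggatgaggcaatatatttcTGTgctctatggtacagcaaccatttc
Igkv1-117: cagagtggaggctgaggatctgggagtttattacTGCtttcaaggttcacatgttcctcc
Igkv1-110: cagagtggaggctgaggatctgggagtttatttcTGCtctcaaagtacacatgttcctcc
Igkv6-15: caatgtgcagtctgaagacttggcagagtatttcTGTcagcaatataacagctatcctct
Igkv3-4: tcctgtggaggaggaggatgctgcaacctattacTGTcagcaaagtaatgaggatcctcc
Igkv9-120: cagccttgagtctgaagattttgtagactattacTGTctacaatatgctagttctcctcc
Igkv6-25: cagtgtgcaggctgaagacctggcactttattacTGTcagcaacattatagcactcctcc
Igkv12-46: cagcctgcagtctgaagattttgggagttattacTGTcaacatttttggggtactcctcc
Ighv3-6: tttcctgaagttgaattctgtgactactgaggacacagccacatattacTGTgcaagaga
Ighv1-26: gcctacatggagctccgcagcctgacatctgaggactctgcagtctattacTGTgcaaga
Ighv1-42: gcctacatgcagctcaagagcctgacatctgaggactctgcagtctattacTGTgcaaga
In the kappa segments shown 7 whole codons followed the cysteine codon, in Iglv1 8 and in the heavy chain segments 2. The ends of Ighv1-26 and Ighv1-42, both of the large Ighv1 family, read alike from the cysteine on. Iglv1 lies at chr16:19085017-19085500 (minus strand), Igkv1-117 at chr6:68121046-68121827 (plus), Igkv1-110 at chr6:68270485-68271267 (plus) and Igkv6-15 at chr6:70406469-70406992 (minus). Igkv3-4 lies at chr6:70671788-70672377 (plus), Igkv9-120 at chr6:68049983-68050456 (plus), Igkv6-25 at chr6:70215400-70215957 (plus) and Igkv12-46 at chr6:69764523-69765022 (minus). On chromosome 12, all on the minus strand, Ighv3-6 lies at chr12:114288152-114288582, Ighv1-26 at chr12:114788372-114788805 and Ighv1-42 at chr12:114937113-114937544.

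Many V segments are close copies of each other, which limits how far a read can be given to 1 of them. Igkv1-117 and Igkv1-110, both among the 5 segments with the most counts, differed at 10 of 359 coding bases (97.2% identity). Bases 60 to 359 of both follow, with the differing bases in capitals.
Igkv1-117: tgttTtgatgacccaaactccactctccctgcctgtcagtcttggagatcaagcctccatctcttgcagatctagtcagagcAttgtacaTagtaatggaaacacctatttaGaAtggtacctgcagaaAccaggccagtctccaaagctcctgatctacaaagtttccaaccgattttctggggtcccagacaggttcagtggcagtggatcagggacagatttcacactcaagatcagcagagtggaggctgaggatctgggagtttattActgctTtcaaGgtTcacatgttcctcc
Igkv1-110: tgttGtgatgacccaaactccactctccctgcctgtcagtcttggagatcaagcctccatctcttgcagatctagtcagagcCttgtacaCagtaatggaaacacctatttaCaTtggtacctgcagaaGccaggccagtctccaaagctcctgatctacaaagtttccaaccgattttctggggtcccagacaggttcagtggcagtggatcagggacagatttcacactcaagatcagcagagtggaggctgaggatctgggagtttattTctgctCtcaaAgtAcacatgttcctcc
Of all windows of 50 bases in the transcript of Igkv1-117, 49.9% also occurred in Igkv1-110. Iglv1, the segment with the most counts, differed from Iglv2 at 11 of 351 coding bases (96.9% identity), and 22.2% of its windows occurred in Iglv2. Bases 52 to 351 of this pair hold 8 of the 11 differences.
Iglv1: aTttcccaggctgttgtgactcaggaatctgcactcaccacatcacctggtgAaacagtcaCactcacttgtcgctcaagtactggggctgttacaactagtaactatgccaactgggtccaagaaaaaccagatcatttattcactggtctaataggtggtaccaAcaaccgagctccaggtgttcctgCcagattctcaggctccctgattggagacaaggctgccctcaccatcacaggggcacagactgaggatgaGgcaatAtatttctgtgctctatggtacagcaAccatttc
Iglv2: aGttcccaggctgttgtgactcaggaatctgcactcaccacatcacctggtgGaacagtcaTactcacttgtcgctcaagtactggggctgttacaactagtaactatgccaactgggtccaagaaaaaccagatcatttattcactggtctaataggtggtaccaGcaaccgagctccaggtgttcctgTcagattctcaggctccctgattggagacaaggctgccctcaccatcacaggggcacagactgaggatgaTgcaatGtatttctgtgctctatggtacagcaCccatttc
Over the 186 members the median share of windows found in another V segment was 23.2%. For 33 members it was 0 and for 24 it was above 50%, with a highest value of 97.4%. The sources used here do not give the treatment of reads that match several copies, so values of single segments with close copies are uncertain, while sums over a family or locus depend less on it. Among the members named below the share was 53.3% for Igkv4-55, 49.0% for Ighv1-26, 45.6% for Igkv6-25, 34.1% for Igkv3-4, 32.8% for Ighv1-42, 25.3% for Igkv9-120, 15.8% for Igkv6-15, 9.76% for Igkv12-46, 3.32% for Ighv3-6 and 0 for Igkv19-93. Iglv1 overlaps the gene 2010309G21Rik on the opposite strand and Ighv1-5 overlaps Mir7094-2 on the same strand, and without a stated strand setting reads of such pairs cannot be told apart.

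Libraries held 15603580 to 34055860 counts at 2 weeks and 11327983 to 15236159 at 12 weeks. Lrp2 was lower in knockout than in wild-type kidneys, at 352 ± 142 against 2002 ± 262 CPM (counts scaled to library depth and composition, mean ± SD, n = 6) at 2 weeks and 322 ± 73.1 against 1874 ± 382 at 12 weeks. All 9 kidney tissue genes of the list were detected in every group. Their summed level was lower in knockout libraries, with 7043 to 9334 CPM against 12474 to 13518 at 2 weeks and 5720.5 to 8746 against 9306 to 13316 at 12 weeks. Lrp2, the deleted gene, is 1 of these 9, so its own fall is part of this difference. Knockout replicate 2 at 12 weeks stood apart from the other 23 libraries. It held 44.6% of all member counts (44144 of 99083), and 138 members had their highest level there. Over 50% of the counts lay in this library for 62 members (33.3%), against 0.348% of all genes with 10 or more counts. Its B cell gene list summed to 293 CPM, against at most 35.3 in the other knockout libraries at 12 weeks. Its lymph node and spleen stroma list summed to 4.74 CPM, against at most 1.61 CPM in those libraries. At 2 weeks the stroma sum was 2.67 to 4.36 CPM in wild type and 1.63 to 3.47 in knockout, so 4.74 CPM lay near the wild-type values. The gene Cr2 is in both lists, so the 2 sums are not independent. Among wild-type libraries, replicate 1 at 12 weeks had the highest B cell sum (68.0 CPM) and stroma sum (5.07 CPM). Results at 12 weeks are therefore given with and without knockout replicate 2.

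V segment RNA was higher in knockout kidneys after 2 weeks of diet. The 186 members together gave 29.6 to 66.4 CPM in wild type (median 55.0, mean 51.5 ± 14.3, n = 6) and 70.0 to 311 in knockout (median 163, mean 166 ± 83.7, n = 6). All 6 knockout libraries lay above all 6 wild-type libraries, with means 3.22-fold and medians 2.96-fold apart. In bulk RNA, more or fewer cells of a kind and more or less RNA per cell cannot be told apart. The total is a sum over chosen members, so no p-value is given for it.

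After 12 weeks the knockout total was higher still and spread widely. Wild-type libraries held 19.9 to 175 CPM (median 55.6, mean 68.2 ± 56.4, n = 6). Knockout libraries held 87.5, 177, 313, 416, 575 and 3545 CPM (median 365, mean 853 ± 1330), the highest being replicate 2. Of the 6 knockout libraries 5 lay above the highest wild-type library, replicate 1, and replicate 3 at 87.5 CPM lay below it. Means were 12.5-fold and medians 6.56-fold apart, and without knockout replicate 2 the knockout mean of 314 ± 193 (n = 5) was 4.60-fold higher. Without wild-type replicate 1 the ratio of means was 18.2. Between durations, medians of wild-type totals were 1.01-fold apart, while the knockout median was 2.24-fold higher at 12 weeks.

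**Figure D1:**
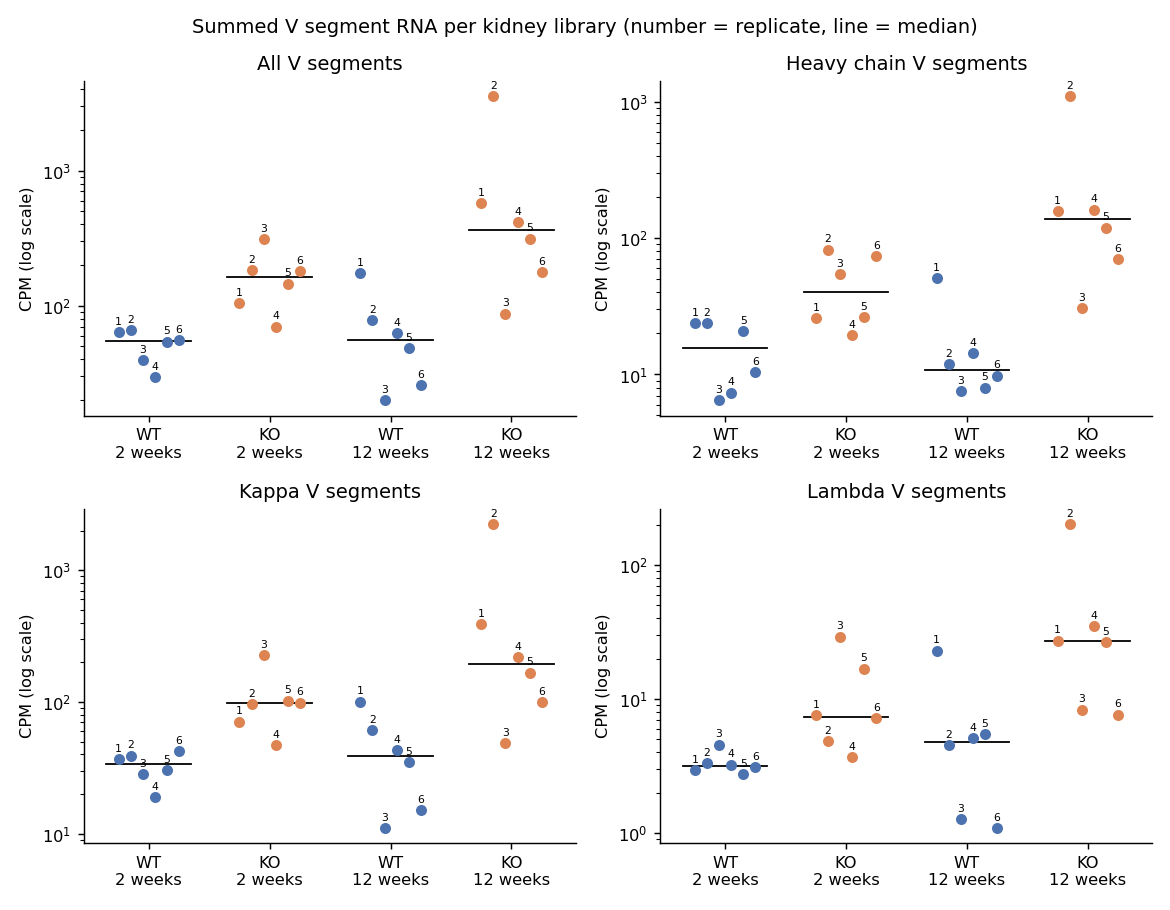
Summed CPM of the member V segments (vertical axes, log scale) for all members and for heavy, kappa and lambda segments, by group. Each point is 1 library with its replicate number and the line is the median of 6 libraries; at 2 weeks every knockout library lies above every wild-type library for all segments together, and knockout replicate 2 at 12 weeks reaches 3545 CPM.

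Heavy, kappa and lambda segments were each higher on average in knockout kidneys at both durations. Kappa segments, which encode the light chain of most mouse antibodies, held 19.0 to 42.4 CPM in wild type and 46.8 to 228 in knockout at 2 weeks, with no overlap and means 3.28-fold apart. Heavy chain segments held 6.44 to 23.9 CPM in wild type and 19.5 to 82.2 in knockout (3.03-fold), and 5 of 6 knockout libraries lay above the highest wild-type value. The 3 lambda segments held 2.75 to 4.57 and 3.70 to 29.3 CPM (3.50-fold). At 12 weeks the means were 15.97-fold apart for heavy, 11.9-fold for kappa and 7.61-fold for lambda segments, and 6.32-fold, 4.17-fold and 3.12-fold without knockout replicate 2. The balance between loci moved little. Heavy segments took 28.6% ± 9.97 of member counts in wild type and 29.0% ± 11.52 in knockout at 2 weeks. At 12 weeks they took 26.6% ± 10.1 and 34.99% ± 4.94 (35.8% ± 5.06 without knockout replicate 2), ranges that overlapped. Lambda segments took 9.78% ± 3.49 (wild type) and 9.03% ± 3.41 (knockout) of light chain V counts at 2 weeks, and 11.1% ± 4.46 and 10.7% ± 3.78 at 12 weeks.

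More different segments were detected where the total was higher. With at least 1 count, 87 to 133 members were detected in wild type and 117 to 140 in knockout at 2 weeks, and 72 to 130 and 124 to 180 at 12 weeks. Expected numbers at an equal depth of 11327983 counts were 94.0 ± 16.7 and 122 ± 10.6 at 2 weeks and 94.0 ± 22.4 and 148 ± 19.3 at 12 weeks (141 ± 12.3 without knockout replicate 2). Both pairs of ranges overlapped. When each library was instead reduced to 202 V segment counts, the total of the library with the fewest, the numbers were 67.2 ± 6.6045 and 68.4 ± 3.19 at 2 weeks and 67.3 ± 6.54 and 73.1 ± 6.42 at 12 weeks (72.6 ± 7.05 without knockout replicate 2). The ratio of knockout to wild type thus went from 1.29 to 1.02 at 2 weeks and from 1.57 to 1.09 at 12 weeks once V totals were made equal. A segment with no count in a library may still be present there: 3 counts, the limit that a count of 0 allows, correspond to 0.0832 to 0.304 CPM across the 24 libraries, for counting error only. Some zeros were shared, as in Ighv1-80, Ighv1-81 and Ighv1-82, singled out after their values were seen. Each had 0 counts in wild-type replicates 3 and 6 and knockout replicates 3 and 5 at 2 weeks. The same held for wild-type replicates 2 and 5 at 12 weeks, and for no knockout library at 12 weeks. Knockout replicate 3 at 2 weeks held 7.45% of all member counts, and Ighv1-9 had 82 counts there. The cause of the shared zeros was not tested.

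No library was dominated by a single V segment. The most abundant member held 5.21% to 11.4% of the member counts of a library in wild type (mean 8.87% ± 2.86, n = 6) and 5.62% to 12.1% in knockout (8.41% ± 2.37, n = 6) at 2 weeks. At 12 weeks it held 4.95% to 12.9% in wild type (10.1% ± 2.83) and 4.61% to 11.9% in knockout (8.17% ± 2.36, and 8.16% without replicate 2). The groups overlapped almost fully at both durations, and the differences of means, -0.459 and -1.93 percentage points, were smaller than 1 SD of either group. Wild-type replicate 3 at 12 weeks rested on 202 V counts, so its 4.95% has a 95% Wilson interval of 2.71% to 8.87%, whereas the 8.21% of Igkv3-4 in knockout replicate 2 rested on 44144 counts (7.96% to 8.47%). PCR copies make reads depend on one another, so these intervals cover counting error only. The 10 leading segments of a library held 41.8% ± 5.58 and 41.7% ± 1.22 of member counts at 2 weeks and 44.4% ± 8.16 and 39.7% ± 7.02 at 12 weeks. The effective number of segments (the inverse of the Simpson concentration, corrected for count number) was 38.4 ± 10.005 and 37.1 ± 3.62 at 2 weeks and 36.0 ± 11.9 and 42.5 ± 11.9 at 12 weeks.

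**Figure D2:**
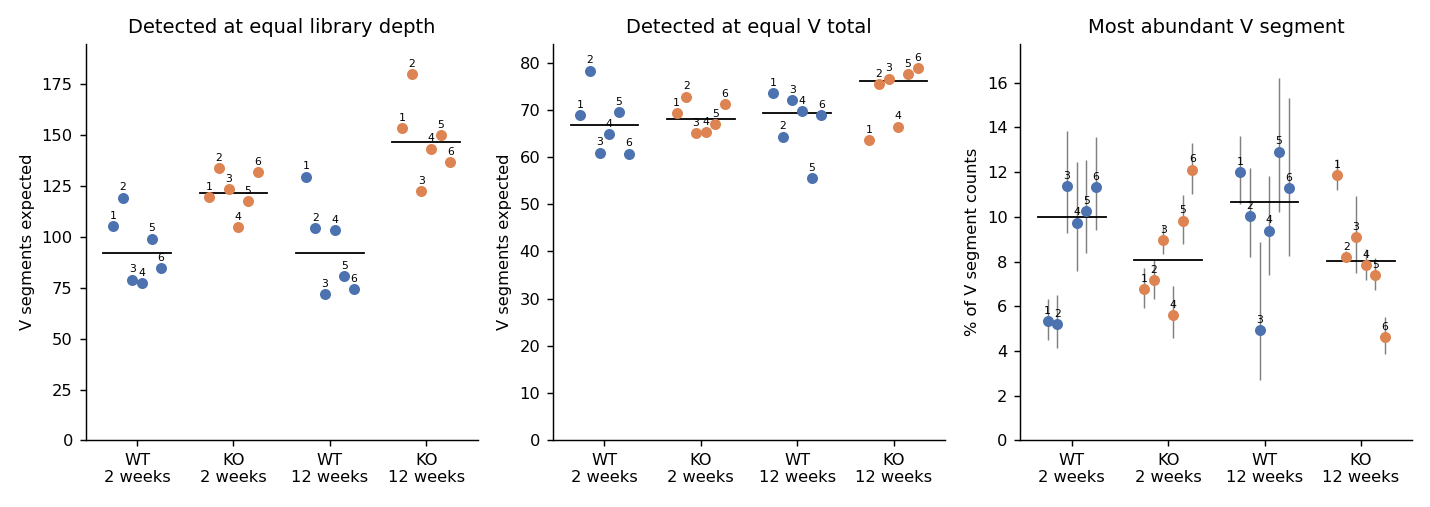
Members expected at 11327983 counts per library (left), members expected at 202 V segment counts per library (middle) and share of the most abundant member with its Wilson 95% interval (right), by group. Points are libraries with their replicate number and lines are medians; in the left panel knockout means are 122 and 148 against 94.0 in each wild-type group, and in the middle and right panels the groups lie at like levels.

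The leading segment differed between libraries of the same group. Iglv1 led 9 of the 24 libraries alone, tied with Igkv12-46 at 10 counts each in wild-type replicate 3 at 12 weeks, and was among the 10 leading segments in all 24; its mean share of lambda V counts was 87.4% to 92.9% in the 4 groups. Igkv1-117 led 5 libraries, and Igkv1-110 and Igkv6-15 led 2 each. Igkv4-57-1, Igkv4-53, Igkv12-44, Igkv3-4 and Igkv9-120 led 1 each. In wild type at 2 weeks Iglv1 and Igkv1-117 led 2 libraries each and in knockout at 2 weeks 3 and 2. In knockout at 12 weeks Iglv1 led 3 libraries, while replicates 1, 2 and 6 were led by Igkv9-120, Igkv3-4 and Igkv12-44. In all, 66 members reached the leading 10 of some library, 66 were detected in at least 20 libraries and 19 in all 24. Dividing counts by transcript length left the leader the same in 23 libraries.

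Several abundant members had most of their counts in 1 library. Iglv1 had 6024 counts over the 24 libraries, Igkv3-4 3881, Igkv1-117 3708, Igkv6-15 2849 and Igkv1-110 2768, and the 10 members with the most counts held 29.8% of all member counts. For Igkv3-4, 93.4% of the counts lay in knockout replicate 2 at 12 weeks, with 291 CPM there and 0 to 5.94 CPM in the other 5 libraries of the group. The same library held 89.3% of the counts of Igkv4-55, 69.5% of Igkv19-93 and 63.8% of Igkv3-2. Igkv9-120 had 50.1% of its counts in knockout replicate 1 at 12 weeks, at 68.3 CPM, or 11.9% of that library's member counts (Wilson interval 11.2% to 12.6%). Such concentration was not limited to replicate 2. After leaving that library out, 28 of the 176 members that still had 10 counts (15.9%) had over 50% of them in 1 library, against 0.592% of all genes. An example chosen after its values were seen is Ighv1-19, with 76.0% of its 525 counts in knockout replicate 4 at 12 weeks, where it made up 18.1% of the heavy V counts. Likewise Ighv1-64 made up 19.4% of the heavy V counts of knockout replicate 1 at 12 weeks.

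**Figure D3:**
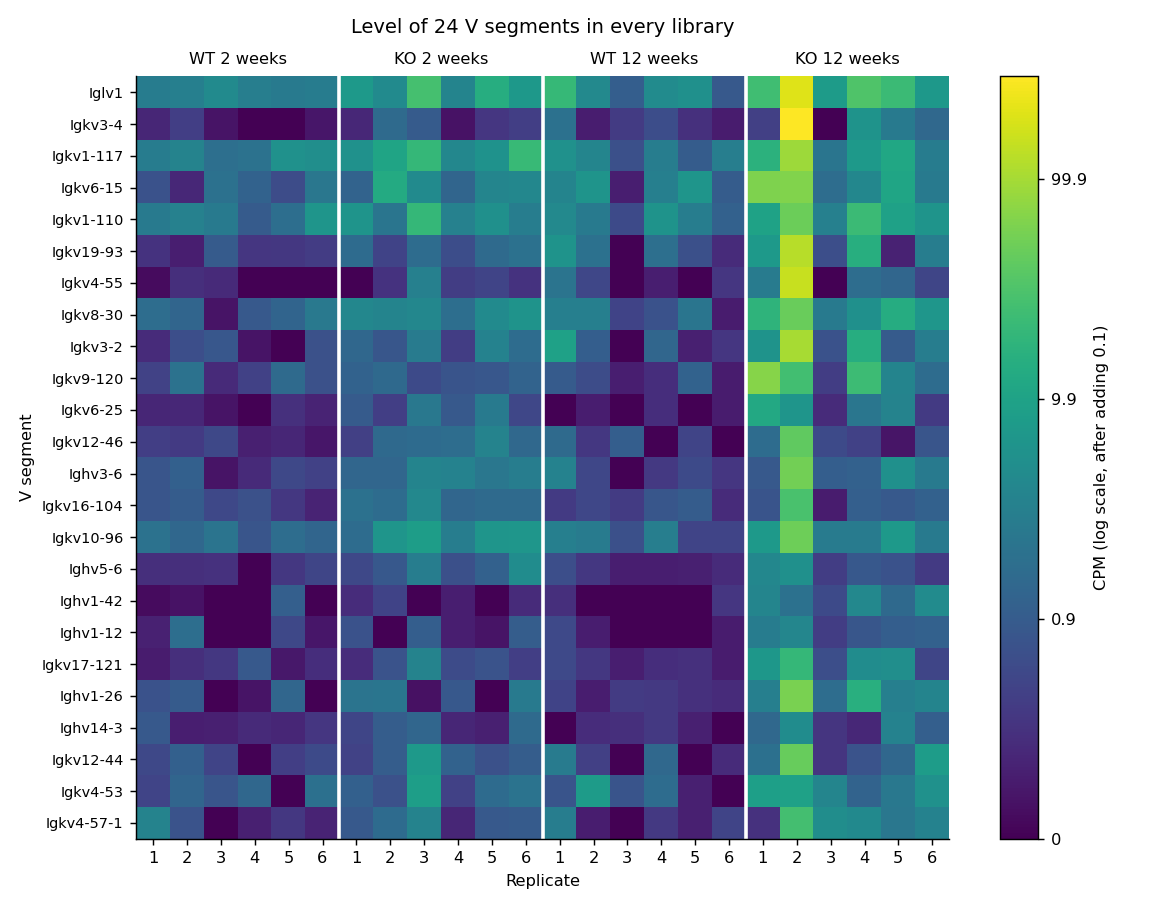
Level of the 24 named V segments (rows) in every library (columns, by group and replicate), as CPM on a log scale after adding 0.1. Iglv1 is present in all libraries, Igkv3-4 reaches 291 CPM only in knockout replicate 2 at 12 weeks, and Igkv9-120 reaches 68.3 CPM in knockout replicate 1 at 12 weeks.

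Use of the segments was about as alike between genotypes as within them. The Morisita-Horn similarity of the member profiles of 2 libraries, which is 1 for equal proportions and 0 for no shared segment, had a median of 0.669 among wild-type and 0.714 among knockout libraries at 2 weeks, and of 0.688 between them. At 12 weeks the medians were 0.563 within wild type, 0.548 within knockout and 0.558 between them. Pairs of libraries share members and counting noise, and the lower V totals of wild type limit these values, so they are a description. Knockout replicate 1 at 12 weeks was least like the others, with a median of 0.457 to the other 23 libraries, against 0.528 for knockout replicate 2 at 12 weeks.

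Single segments were tested with edgeR's quasi-likelihood test across all genes. The low-count filter kept 87 members, which hold 85.5% of member counts, and left out 99. A member can pass this filter through its high group alone, so the counts of calls describe the set and carry no weight as a test of it. At 2 weeks 30 of the 87 were higher in knockout at an adjusted p under 0.05 and 0 were lower, against 18.2% higher and 13.4% lower among the 17286 genes tested. Their median log2 fold change was 1.61, against -0.01 over all genes tested. By unadjusted p under 0.05, 43 were higher and 0 lower, and DESeq2 gave 35 and 0. Without the filter 24 of all 186 members were higher and 0 lower, against 9.3% higher among all genes. The count was 9 in a fit of all 24 libraries, 8 of them among the 30, and 19 without knockout replicate 3 or without wild-type replicate 4. Over all members, the mean CPM was higher in knockout for 163, lower for 20 and 0 in both for 3, against 47.0% of all genes with 10 or more counts that were higher.

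Kappa segments made up most of the calls at 2 weeks, with 23 of 51 tested, against 6 of 34 heavy and 1 of 2 lambda segments. Of the heavy segments tested, 16 were of the Ighv1 family, which holds the shared zeros given above, and 0 of these 16 passed. Igkv6-25 had the smallest adjusted p. It held 0 to 0.201 CPM in wild type (median 0.131) and 0.339 to 2.48 in knockout (median 0.860). The groups did not overlap, and the log2 fold change was 3.44 ± 0.60 (SE, edgeR adjusted p = 0.00024). Ighv3-6, a heavy chain segment, held 0.0519 to 1.07 CPM in wild type (median 0.421) and 1.30 to 3.58 in knockout (median 2.54). It too showed no overlap, with a log2 fold change of 2.32 ± 0.44 (edgeR adjusted p = 0.0007). Igkv16-104 and Ighv5-6 completed the 4 tested members in which every knockout library lay above every wild-type library, a pattern seen in 10.3% of all genes tested. Igkv16-104 went from 0.124 to 0.925 CPM (median 0.543) to 1.30 to 4.05 (median 1.54; log2 fold change 1.88 ± 0.38, edgeR adjusted p = 0.00083). Ighv5-6 went from 0 to 0.434 CPM (median 0.201) to 0.460 to 4.76 (median 0.939; 3.05 ± 0.67, adjusted p = 0.0028 by edgeR).

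Igkv12-46 and Igkv10-96 rose at 2 weeks with slight overlap of the groups. Igkv12-46 held 0.0620 to 0.468 CPM in wild type and 0.354 to 3.46 in knockout (log2 fold change 2.72 ± 0.49, edgeR adjusted p = 0.00032), and Igkv10-96 held 0.722 to 2.03 and 1.56 to 8.27 CPM (1.85 ± 0.36, edgeR adjusted p = 0.001). In a fit of all 24 libraries, Igkv6-25 and Ighv5-6 passed (edgeR adjusted p = 0.0051 and 0.0043), whereas Igkv12-46, Ighv3-6, Igkv16-104 and Igkv10-96 did not (0.11, 0.097, 0.14 and 0.056). Of the 10 members with the most counts, 8 passed at 2 weeks, with log2 fold changes between 1.68 (Igkv8-30, SE 0.44, edgeR adjusted p = 0.0094) and 3.46 (Igkv4-55, SE 1.18, edgeR adjusted p = 0.041). In a fit of all 24 libraries 0 of these 8 passed, with edgeR adjusted p from 0.066 (Igkv8-30) to 0.6 (Igkv3-4), and Igkv6-15, Igkv3-4 and Igkv4-55 lost the call in 10, 9 and 8 of 18 alternatives. Iglv1 held 2.61 to 4.47 CPM in wild type (median 2.84) and 3.52 to 27.9 in knockout (median 6.98). The ranges overlapped at their ends, and the log2 fold change was 1.83 ± 0.50 (edgeR adjusted p = 0.015). Igkv1-117 rose by 1.78 ± 0.50, while for its close copy Igkv1-110 the value of 1.26 ± 0.63 did not pass (edgeR adjusted p = 0.018 and 0.16). Igkv9-120 gave 0.25 ± 0.47 (edgeR adjusted p = 0.73), with 0.156 to 1.95 CPM in wild type and 0.506 to 1.41 in knockout.

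At 12 weeks more members passed, and heavy chain segments among them. Of the 87 tested, 54 were higher in knockout and 0 lower (80 and 0 by unadjusted p under 0.05, 55 and 0 by DESeq2), against 20.7% higher and 17.7% lower among all genes tested. Their median log2 fold change was 3.52, against 0.00 over all genes. Without the filter 53 of all 186 were higher and 0 lower, against 10.1% higher among all genes. Without knockout replicate 2 the count was 39, all of them among the 54, against 18.2% higher and 14.5% lower among all genes, with a median of 2.16. Without wild-type replicate 6 or 5 it was 30 or 34. By locus, 24 of 34 heavy, 28 of 51 kappa and 2 of 2 lambda segments passed, and without knockout replicate 2, 21, 17 and 1. Over all members, the mean CPM was higher in knockout for 182 and lower for 4, and for 169 and 15 without knockout replicate 2, against 47.6% of all genes with 10 or more counts that were higher.

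The Ighv1 family, the largest of the heavy chain members, supplied 13 of the calls at 12 weeks. Of its 47 members 16 were tested, of which 13 rose at 12 weeks (11 without knockout replicate 2) and 0 passed at 2 weeks. As given above, Ighv1-80, Ighv1-81 and Ighv1-82 shared zeros in some libraries of every group but knockout at 12 weeks. For such members, genotype at 12 weeks cannot be told apart from whatever set these libraries apart, which was not tested. The family as a whole held 7.68 CPM in wild type and 23.7 in knockout at 2 weeks (3.08-fold), and 7.80 and 169.5 at 12 weeks (21.7-fold, 8.42-fold without knockout replicate 2). It took 45.3% ± 15.3 and 46.5% ± 17.4 of heavy V counts at 2 weeks, and 40.3% ± 13.1 and 59.4% ± 6.83 at 12 weeks. The lowest shares were 19.2% and 24.6% at 2 weeks and 17.7% and 52.1% at 12 weeks. No knockout library at 12 weeks had the shared zeros, so the difference in share at 12 weeks cannot be told apart from their spread over the groups. Ighv1-42 had the smallest adjusted p at 12 weeks. It had no count in most wild-type libraries, with a median of 0 and a highest value of 0.251 CPM, and held 0.492 to 4.56 CPM in knockout (median 2.77), without overlap. Ighv1-42 had 0 counts in every library with the shared zeros, so the same limit holds for it. At 12 weeks these are wild-type replicates 2 and 5, and wild-type replicates 3 and 4 had 0 counts of it as well. Its log2 fold change was 4.97 ± 0.74 (edgeR adjusted p = 0.00019, and 0.00024 without knockout replicate 2). At 2 weeks the same segment gave -0.11 ± 1.14 (edgeR adjusted p = 0.96). Ighv1-26 held 0.0885 to 0.390 CPM in wild type (median 0.241) and 1.64 to 57.9 in knockout (median 3.31), again without overlap. It had 0 or 1 count in the 2-week libraries with the shared zeros. At 12 weeks it had 1 and 2 counts in wild-type replicates 2 and 5, and 2 to 4 in the other wild-type libraries. The same limit therefore holds for Ighv1-26. Its log2 fold change was 5.87 ± 1.23 with replicate 2 (edgeR adjusted p = 0.0036) and 4.48 without it (edgeR adjusted p = 0.00037). Ighv8-12, Ighv8-8 and Ighv1-82 also showed no overlap, which makes 5 of the tested members against 10.1% of all genes tested. Of these, Ighv1-82 had the shared zeros and Ighv8-8 had 0 to 6 counts in the same libraries.

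Igkv6-25 was the kappa segment with the smallest adjusted p at 12 weeks as well. It held 0 to 0.186 CPM in wild type (median 0.0419) and 0.164 to 12.3 in knockout (median 2.84). Only the lowest knockout library overlapped wild type, and the log2 fold change was 5.86 ± 1.22 (edgeR adjusted p = 0.0028, and 0.0069 without knockout replicate 2). The call for Igkv6-25 held in all 18 alternatives run at each duration. Igkv17-121 (4.80 ± 1.00), Ighv1-12 (3.79 ± 0.80) and Ighv14-3 (3.78 ± 0.91) followed, with edgeR adjusted p = 0.0029, 0.002 and 0.0054, and 0.0019, 0.003 and 0.0085 without knockout replicate 2. Their wild-type libraries reached at most 0.488, 0.488 and 0.280 CPM and their knockout libraries spanned 0.434 to 20.2, 0.328 to 3.77 and 0.147 to 4.74 CPM, so the ranges overlapped.

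Of the 10 members with the most counts 7 passed at 12 weeks, and 4 of these lost the call without knockout replicate 2. Iglv1 held 0.837 to 20.97 CPM in wild type (median 4.36) and 6.88 to 196 in knockout (median 24.1). Its log2 fold change of 3.01 ± 1.04 passed (edgeR adjusted p = 0.042) and without that library its 1.68 did not (edgeR adjusted p = 0.13). Igkv3-4 gave 6.63 ± 2.24 on the log2 scale with it and 2.02 without it, and Igkv4-55 gave 5.78 ± 2.06 and 1.38 (edgeR adjusted p = 0.039 and 0.048 with, 0.15 and 0.31 without). Igkv1-117, at 2.99 ± 1.00, lost its call without it too (edgeR adjusted p = 0.036 and 0.078). Igkv8-30 gave 3.34 ± 0.84, Igkv1-110 2.57 ± 0.73 and Igkv9-120 5.45 ± 1.33 (edgeR adjusted p = 0.0095, 0.018 and 0.0086, and 0.015, 0.033 and 0.019 without that library). Igkv9-120, with no call at 2 weeks, spanned 0.0837 to 1.12 CPM in wild type and 0.328 to 68.3 in knockout at 12 weeks (median 13.4). Igkv6-15, Igkv19-93 and Igkv3-2 did not pass at 12 weeks (edgeR adjusted p = 0.058, 0.068 and 0.094).

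**Figure D4:**
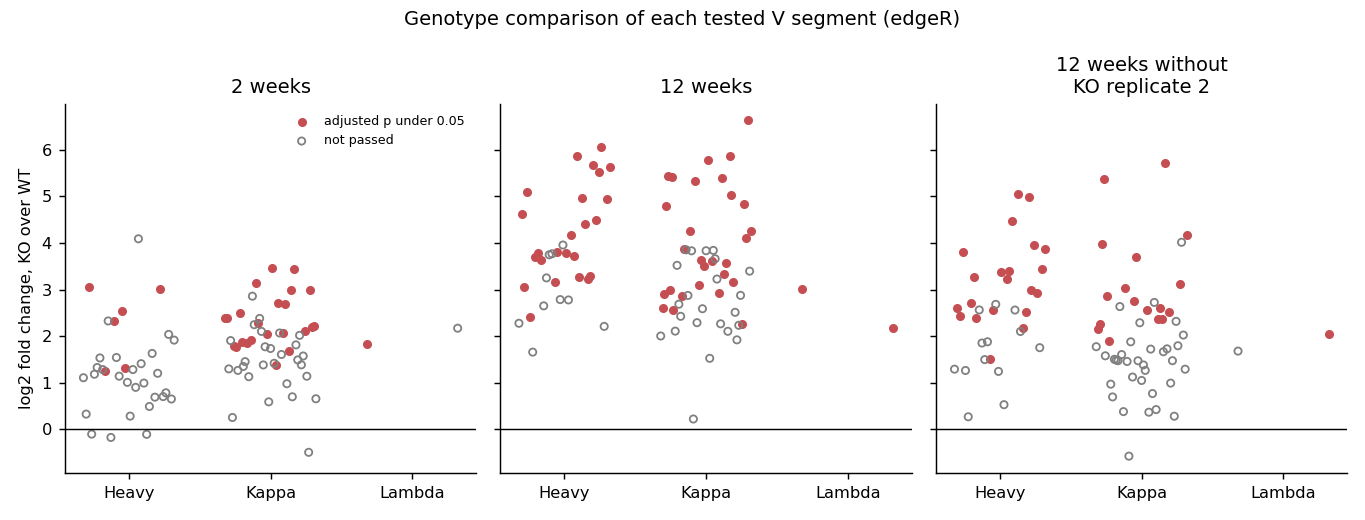
Log2 fold change of knockout over wild type for each tested member, by locus, at 2 weeks, at 12 weeks and at 12 weeks without knockout replicate 2. Filled points passed edgeR's adjusted p under 0.05 and open points did not; 30, 54 and 39 members passed, all above 0, and points within a locus follow their order along the chromosome, not to scale.

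The calls at both durations overlapped in part. Of the 30 members called at 2 weeks 17 were also called at 12 weeks, which is 56.7% of the former and 31.5% of the 54 called at 12 weeks. The difference between the genotype effects, tested as an interaction over all 24 libraries, passed for 0 members in either direction, against 0.116% and 0.0579% of all genes tested. By unadjusted p under 0.05, 15 members had a larger knockout effect at 12 weeks and 0 a smaller one, and DESeq2 called 1. So the passing of Ighv1 segments at 12 weeks and not at 2 weeks is not shown to be a difference between durations: for Ighv1-42 the interaction had an edgeR adjusted p = 0.19 and for Igkv9-120 0.16. Within wild type, 0 members differed between 12 and 2 weeks (1 higher and 0 lower by unadjusted p under 0.05; DESeq2 was not run for it), against 15.8% higher and 14.7% lower among all genes. Within knockout, 42 members were higher at 12 weeks and 0 lower (20 heavy, 20 kappa and 2 lambda), against 17.7% and 16.1% of all genes. Without knockout replicate 2, 10 were higher and 1 lower, against 15.2% and 14.4%, the lower one being Igkv16-104 (edgeR adjusted p = 0.017). The gene Gm42418 had 0 counts in all libraries at 2 weeks and 71635 to 424892 at 12 weeks, so duration and library making cannot be told apart in these comparisons.

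Constant region RNA shows which antibody classes accompanied the V segments. Igha, the constant region of IgA, made up most of the heavy constant counts at 2 weeks, with 91.8% ± 2.85 in wild type and 92.5% ± 2.52 in knockout. Its level was 56.8 to 143 CPM in wild type (median 114) and 162.5 to 923 in knockout (median 314), without overlap. The log2 fold change was 1.90 ± 0.41 (edgeR adjusted p = 0.0048). At 12 weeks it was 32.3 to 152 CPM in wild type and 165 to 1675 in knockout, again without overlap (2.73 ± 0.57, edgeR adjusted p = 0.0035, and 0.0051 without knockout replicate 2). The share of Igha was lower at 12 weeks in both genotypes, at 70.7% ± 20.97 in wild type and 58.8% ± 25.6 in knockout (66.7% ± 18.7 without replicate 2).

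At 12 weeks Ighm and the sum of the Ighg genes were highest in knockout replicates 2 and 1, the libraries with the highest V totals, while Ighg1 and Ighg3 were second highest in knockout replicate 4 (48.6 and 23.8 CPM). Ighm, of IgM, held 3.95 to 8.23 CPM in wild type and 11.6 to 19.4 in knockout at 2 weeks (log2 fold change 1.48 ± 0.17, edgeR adjusted p = 3.8e-06, but 0.35 in a fit of all 24 libraries). At 12 weeks it held 7.78 to 187 CPM in wild type and 34.2 to 4300.1 in knockout, which overlapped (4.32 ± 1.55, edgeR adjusted p = 0.05, and 0.23 without knockout replicate 2), a call that was lost in 12 of 18 alternatives. The 4 Ighg genes, of IgG, summed to 3.28 and 10.8 CPM at 2 weeks, and to 22.1 and 608 at 12 weeks (172 without knockout replicate 2). In knockout replicate 2 at 12 weeks Ighm reached 4300.1 CPM, Ighg2c 1339, Ighg3 347 and Igha 1675, so Igha was 19.1% of the heavy constant counts. Knockout replicate 1 at 12 weeks, led by Igkv9-120, held 443 CPM of Ighg2c, and Igha was 33.6% there. Of 11 tested constant regions 7 passed as higher at 2 weeks and 9 at 12 weeks (4 without knockout replicate 2), and 0 were lower, against 18.2% and 20.7% of all genes tested that were higher. In a fit of all 24 libraries Ighm, Ighg1, Ighg2b, Iglc1 and Iglc2 lost the call at 2 weeks, and Igha and Igkc passed (edgeR adjusted p = 0.0061 and 0.041). Iglc1 lost it in 10 of 18 alternatives. Igkc, the kappa constant region, rose by 2.04 at 2 weeks and 3.44 at 12 weeks on the log2 scale (edgeR adjusted p = 0.0046 and 0.019, and 0.039 at 12 weeks without knockout replicate 2). The ratio of Igkv to Igkc counts was 0.499 ± 0.0504 and 0.444 ± 0.0833 at 2 weeks and 0.553 ± 0.0437 and 0.603 ± 0.0345 at 12 weeks.

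**Figure D5:**
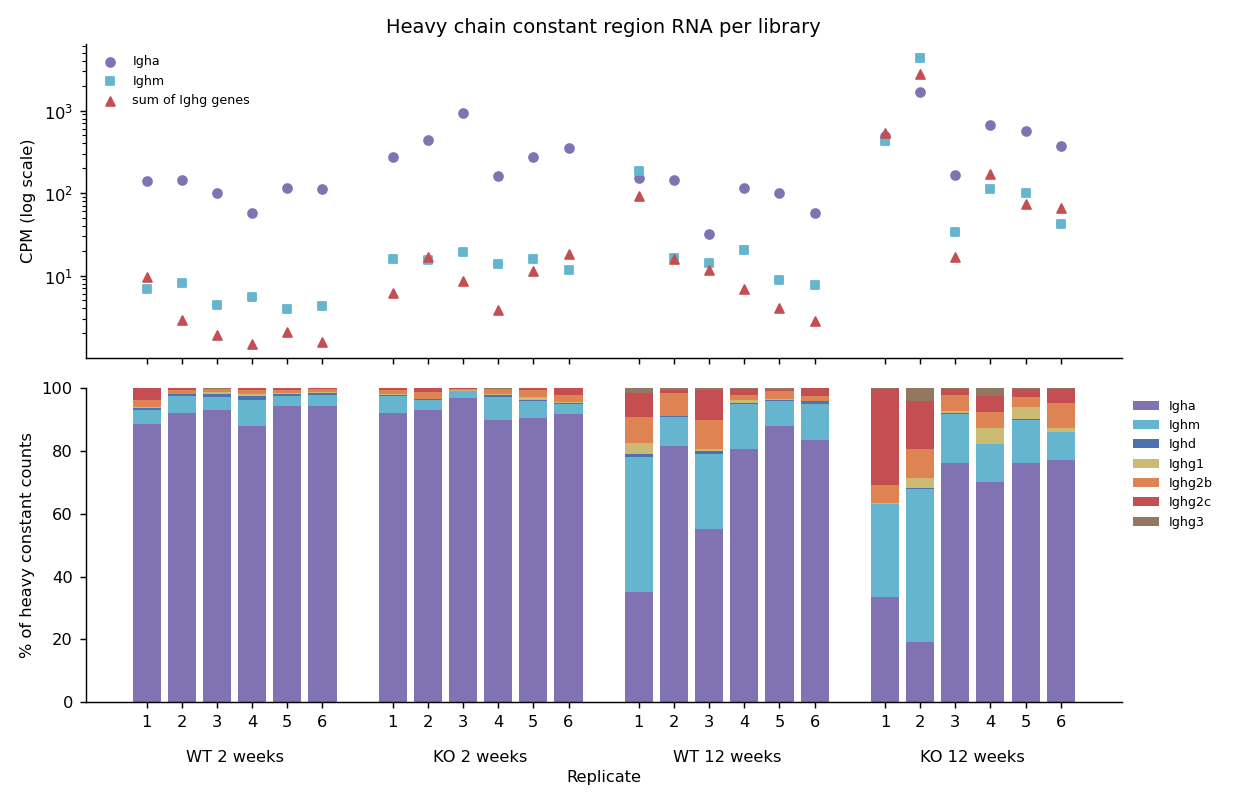
Top, CPM of Igha, Ighm and the sum of the Ighg genes (log scale) in each library; bottom, share of each heavy chain constant region in the heavy constant counts of that library, without Ighe, which had 10 counts in all. Igha takes 87.9% to 97.0% of these counts at 2 weeks, and Ighm and Ighg2c take more in knockout replicates 1 and 2 and wild-type replicate 1 at 12 weeks.

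Gene lists of other cell types show what else differed between these kidneys. Counts of calls in the lists are to be read beside the shares among all genes tested. These were 18.2% higher and 13.4% lower at 2 weeks, and 20.7% and 17.7% at 12 weeks. Without knockout replicate 2 they were 18.2% and 14.5% at 12 weeks. Of the genes from these lists named with a call at 12 weeks, Cd37 and Slc12a3 lost it without knockout replicate 2 (edgeR adjusted p = 0.066 and 0.051). Of 12 tested plasma cell genes 7 rose at 2 weeks (median log2 fold change 0.99) and 8 at 12 weeks (median 1.91; 7 rose and 1 fell without knockout replicate 2). Their summed level was 176 to 239 CPM in wild type and 259 to 557 in knockout at 2 weeks, and 209 to 273 and 258 to 1592 at 12 weeks (up to 599.97 without knockout replicate 2). Among them Irf4, a transcription factor of plasma cell formation that T cells and macrophages also express, rose by 2.16 ± 0.22 and 2.61 ± 0.55 (edgeR adjusted p = 6.8e-07 and 0.003). Slamf7, a surface receptor of plasma cells and other lymphocytes, rose by 1.55 ± 0.20 and 1.84 ± 0.27 (edgeR adjusted p = 7.5e-06 and 0.00019). Sdc1 (syndecan-1), also made by epithelium, rose by 1.40 ± 0.20 and 1.61 ± 0.18 (edgeR adjusted p = 0.00011 and 2.4e-05). Jchain, which links IgA and IgM into polymers and was singled out after its values were seen, held 21.3 to 43.0 CPM in wild type and 43.9 to 300 in knockout at 2 weeks (1.82 ± 0.43, edgeR adjusted p = 0.0077). At 12 weeks it held 13.9 to 81.3 and 53.2 to 1104 CPM, which overlapped (2.99 ± 0.79, edgeR adjusted p = 0.013, and 0.023 without knockout replicate 2).

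Of 13 tested B cell genes 6 rose and 1 fell at 2 weeks, and 3 rose at 12 weeks (2 rose and 1 fell without knockout replicate 2). The numbers that rose at 12 weeks lay near the shares among all genes tested, 20.7% and 18.2% without that library. Spib, a transcription factor, rose by 2.62 ± 0.29 and 3.06 ± 0.83, and the kinase gene Blk by 1.69 ± 0.34 and 2.62 ± 0.75 (edgeR adjusted p = 2.2e-06, 0.013, 0.00088 and 0.015). Cd37, a leukocyte tetraspanin, rose by 1.19 ± 0.23 and 1.61 ± 0.57 (edgeR adjusted p = 0.00054 and 0.042). Cr2, the complement receptor of B cells and follicular dendritic cells, fell by 0.75 on the log2 scale at 2 weeks (edgeR adjusted p = 0.01, and 0.089 in a fit of all 24 libraries). Ms4a1, the B cell surface gene for CD20, was singled out after its values were seen and did not pass at either duration, with log2 fold changes of 0.21 ± 0.50 and 2.10 ± 1.21 (edgeR adjusted p = 0.79 and 0.20).

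Genes of V segment recombination were at or near 0. Rag2 had 0 counts in all 24 libraries and Rag1 3 counts in all, and of the early B cell list 1 gene was tested and 0 passed. The cytokine gene Il21 (1.29 CPM) and the follicle chemokine gene Cxcl13 (12.2 CPM) were highest in knockout replicate 2 at 12 weeks. These 4 genes were singled out after their values were seen. Of the tested germinal centre genes 4 of 5 rose at 2 weeks and 2 of 5 at 12 weeks, namely S1pr2 (1.43 ± 0.17 and 1.32 ± 0.23) and Gcsam (1.45 ± 0.32 and 2.15 ± 0.34) at both, with edgeR adjusted p = 3.3e-06, 0.00043, 0.0016 and 0.00021. Mybl1 rose at 2 weeks (0.80 ± 0.18, edgeR adjusted p = 0.0022).

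Of the follicle and B cell attraction list 3 of 5 tested genes rose and 1 fell at 2 weeks, and 3 rose at 12 weeks. Tnfsf13b, which encodes the B cell survival factor BAFF, rose by 1.96 ± 0.24 and 2.46 ± 0.32, and Il6, a cytokine that supports plasma cells, by 3.69 ± 0.51 and 3.47 ± 0.65 (edgeR adjusted p = 4.9e-06, 7.7e-05, 2.3e-05 and 0.00075). Cxcl12, a chemokine that retains plasma cells in their niche, fell by 0.57 at 2 weeks (edgeR adjusted p = 0.00036) and gave 0.03 ± 0.13 at 12 weeks. Of 9 immunoglobulin receptor genes 4 rose and 1 fell at both durations, and the Fc receptor genes Fcgr3 (2.17 and 1.95), Fcer1g (1.90 and 1.68) and Fcgr4 (1.63 and 1.28) were among those that rose. Pigr, the epithelial carrier of polymeric IgA, was singled out after its values were seen and did not pass, at 0.18 ± 0.18 and -0.08 ± 0.21 (edgeR adjusted p = 0.48 and 0.80).

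T cell genes rose at both durations, with 11 of 12 tested at 2 weeks (median log2 fold change 1.42) and 11 of 12 at 12 weeks (median 2.33; 10 without knockout replicate 2). Cd3g and Cd4 rose by 1.91 ± 0.27 and 2.19 ± 0.33 at 2 weeks and by 2.62 ± 0.38 and 2.67 ± 0.39 at 12 weeks. Trac, the T cell receptor alpha constant region, rose by 0.97 ± 0.22 and 2.42 ± 0.38. The 24 T cell receptor V segments with at least 10 counts, chosen by the same threshold, summed to 0.776 to 1.21 CPM in wild type and 1.39 to 3.08 in knockout at 2 weeks (2.13-fold by means). At 12 weeks they summed to 0.502 to 1.37 and 2.35 to 8.83 CPM (4.73-fold, 3.59-fold without knockout replicate 2). They showed no overlap at either duration, and knockout replicate 2 at 12 weeks was the highest of all libraries here too. Of 9 kidney tissue genes 5 fell at 2 weeks and 5 fell and 1 rose at 12 weeks (3 fell and 1 rose without knockout replicate 2). Among them were Lrp2, which is the deleted gene, the phosphate carrier gene Slc34a1 and the salt carrier gene Slc12a3. The lymph node and spleen stroma list had 1 tested gene, Cr2, and of its 7 genes in the files 4 (wild type) and 3 (knockout) were at 0 throughout the group at 2 weeks, and 5 and 1 at 12 weeks. The part of lower kidney tissue RNA, of lymphoid tissue in a sample and of single libraries in the V segment totals was not tested.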

How the data were processed

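Whole-kidney total RNA was sequenced from 24 libraries, 6 in each of 4 groups of genotype and diet duration, taken from the labels. The authors deposited raw counts of reads per gene, and the submitters' processing notes name fastp, STAR 2.5, HTSeq 0.6.1 and mm10. The sources used here do not give the strand setting or the annotation release. Gene classes, positions and sequences came from GENCODE M21, which held 54495 of the 54532 gene IDs in the files. The segments, gene lists and tests were chosen with earlier results of these data known.

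Genes were tested with edgeR 4.0.16 (R 4.3.3; TMM scaling, quasi-likelihood test with robust dispersion, filterByExpr with a minimum count of 10 and a minimum total of 15, which kept 17286 genes). Each genotype comparison used the 12 libraries of its duration, and the comparisons of durations and the interaction used all 24. P-values were adjusted by Benjamini-Hochberg over all genes tested, with a threshold of 0.05. Standard errors were derived from the test statistic. CPM values are counts scaled to the TMM-adjusted library size. Numbers of detected segments were computed as hypergeometric expectations at equal depth or equal V total. Alternatives were DESeq2 1.42.0, no filter, all libraries in 1 fit, other scalings, a replicate block and leaving out each library. The edgeR fits were tested on simulated data. Of 100 genes changed by 1 on the log2 scale, 60, 66 and 25 were found at 2 weeks, at 12 weeks and in the interaction. Of 100 changed by 2, the numbers were 97, 94 and 89. The simulated scatter was a set function of the level and was not taken from the V segments. Depth per library was 11327983 to 34055860 counts, and 202 to 44144 of these lay on the V segments. In each group, chi-square comparisons of replicates showed no library deposited more than once.

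The genes named are the 10 members with the most counts, the 6 called members with the smallest adjusted p per direction in each genotype comparison, the member that leads each library, those next to the count threshold, the constant regions tested, and up to 3 called genes per other list with the smallest adjusted p. The other lists hold plasma cell, B cell, early B cell, germinal centre, follicle and B cell attraction, immunoglobulin receptor, T cell, lymphoid stroma and kidney tissue genes.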

Additional observations from a re-analysis of the deposited data

Results flagged for a closer look

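Dixon's test was applied to 172 sets of 6 libraries (totals, V segments and constant regions named, per group). In 76 of them (44.2%) the highest library lay further from the others than the 95% critical value. For normally distributed values chance flags about 1 in 20 groups. The test was run on CPM without a log scale, where values skewed to the high side are flagged more often. The 44.2% therefore cannot be read as an excess over chance. All levels below are CPM, no lowest library was flagged, and the values of single genes share their libraries.

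Knockout replicate 2 at 12 weeks was the flagged library in every flagged set of its group. It stood apart for the V total (3545), for heavy (1097), kappa (2245) and lambda V segments (203), and for the T cell receptor V segments (8.83). Among single segments it stood apart for Igkv3-4 (291), Iglv1 (196), Igkv4-55 (150.2), Igkv19-93 (122), Igkv3-2 (103), Igkv1-117 (90.3), Ighv1-26 (57.9), Ighv3-6 (52.8) and Igkv10-96 (49.96). The same held for Igkv8-30 (46.3), Igkv12-44 (45.1), Igkv12-46 (40.9), Igkv16-104 (29.2), Igkv4-57-1 (27.1) and Igkv17-121 (20.2). Among constant regions it stood apart for Ighm (4300.1), Igkc (3483), Igha (1675), Ighg2c (1339), Ighg2b (835), Ighg3 (347), Ighg1 (271), Iglc1 (146), Iglc2 (39.996), Iglc3 (20.9) and Ighd (9.16).

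In wild type at 12 weeks replicate 1 stood apart for the V total (175), heavy (50.8) and lambda V segments (23.0), and for Iglv1 (20.97), Igkv3-2 (9.65), Igkv19-93 (5.95), Ighv3-6 (3.32), Igkv4-57-1 (2.83), Igkv4-55 (2.05), Igkv3-4 (1.85), Ighv5-6 (0.585) and Ighv1-12 (0.488). It also stood apart for Ighm (187), Ighg2b (34.8), Ighg2c (34.0), Ighg1 (16.4), Iglc1 (16.4), Ighg3 (6.24) and Ighd (4.10). Replicate 2 of the same group stood apart for Igkv4-53 (7.79).

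In knockout at 2 weeks replicate 3 stood apart for kappa V segments (228), T cell receptor V segments (3.08), Igkv1-110 (20.1), Igkv4-53 (8.52), Igkv12-44 (7.46), Igkv16-104 (4.05), Igkv17-121 (3.42), Igkv4-55 (3.16), Igha (923), Igkc (641) and Iglc1 (22.8). Replicate 2 stood apart for Igkv6-15 (13.2) and replicate 4 for Ighg3 (0.139).

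In wild type at 2 weeks the flagged libraries were spread over the replicates. Replicate 1 stood apart for Ighg2c (5.68), Igkv4-57-1 (3.41), Ighd (1.22) and Ighv14-3 (0.832), and replicate 2 for Ighv1-12 (1.70). Replicate 3 stood apart for lambda V segments (4.57), Iglv1 (4.47), Igkv19-93 (0.883) and Ighg3 (0.104). Replicate 4 stood apart for Igkv17-121 (0.825), and replicate 5 for T cell receptor V segments (1.21) and Ighv1-42 (1.01).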

How the results depend on the processing

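The 2-week difference in the leading share changed sign without knockout replicate 4, from -0.459 to 0.0990 percentage points, and the median log2 change of the members from 2 to 12 weeks in wild type, 0.15, was -0.37 without wild-type replicate 1 at 12 weeks. Of the summary results, 265 values stayed close to the main value and 13 moved further. For counts of calls, close meant within 1.5 times the main value. For ratios, on the log2 scale, and for differences it meant within the larger group SD of the libraries. Where libraries spread widely, large changes therefore counted as close, and so did the change of sign above. For single genes, 1064 values kept their side of the threshold, 147 lost the call and 43 gained it. At 2 weeks the count of V segments called higher was 9 in a fit of all 24 libraries and 19 to 32 when 1 library was left out. At 12 weeks it was 30 to 71, the lowest without wild-type replicate 6, with 34 without wild-type replicate 5. The interaction gave 1 call with DESeq2 and 0 whichever library was left out. The wild-type comparison of durations gave 1 call without the filter and 0 whichever library was left out. The knockout comparison of durations gave 72 without the filter, and 10 to 49 higher and 0 to 1 lower when 1 library was left out, with 10 and 1 without knockout replicate 2 at 12 weeks. The ratio of segments detected fell to 1.02 and 1.09 at equal V totals, and was 2.29 at 12 weeks for segments with at least 3 counts. Leaving out 1 library gave total ratios of 2.65 to 3.59 and 4.60 to 18.2, detection ratios of 1.25 to 1.37 and 1.5004 to 1.70, and differences in the leading share of -1.20 to 0.0990 and -2.96 to -1.22 percentage points. The causes were not tested. Replicate numbers did not pair the libraries. Residuals of same-numbered libraries correlated by -0.058 to 0.057 at 2 weeks and -0.10 to 0.17 at 12 weeks, and 0 of 12 and 2 of 12 libraries correlated best with their own number. With a replicate block 31, 57 and 0 V segments were called at 2 weeks, at 12 weeks and in the interaction. Depth limits single segments most in wild type at 12 weeks, where a library held as few as 202 V counts.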
